A study of Mus musculus with 4 samples.

Results

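The genes described here encode AP-1 and related immediate early transcription factors: the Fos family members Fos, Fosb and Fosl2, the Jun family members Jun, Junb and Jund, the related leucine zipper proteins Atf3 and Jdp2, and the zinc finger factors Egr1 and Klf6. They were taken by gene symbol from the count table. All 10 were among its 15835 genes, and all 10 passed the filter on low counts that left 7700 genes for testing. By the labels, the RNA came from ILC2 of the pancreatic islets of Langerhans. ILC2 are innate lymphoid cells of group 2, which live in tissues and release type 2 cytokines such as interleukin 5 and interleukin 13. The mice were C57BL/6j in both groups, with no other allele or agent in the labels, and were either fed or fasted. The length of the fast, the age of the animals and how the cells were isolated are not given in the sources used here. Each group held 4 libraries, called fed 1, 3, 4 and 5 and fasted 1, 3, 4 and 5 after their column numbers. The comparison asks how the transcript levels of these genes in these islet ILC2 libraries differed between fed and fasted animals.

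AP-1 is a dimer of leucine zipper proteins. Jun proteins pair with each other or with Fos proteins, whereas Fos proteins need a Jun partner, and the dimers bind the letters TGACTCA. With ATF or CREB proteins as partners they also bind the cyclic AMP response element. Immediate early genes are transcribed within minutes of a stimulus, without new protein synthesis, through factors that MAP kinases and cyclic AMP activate, and their mRNAs decay fast. In lymphocytes AP-1 acts with NFAT and NF-kB at cytokine genes, and in ILC2 it lies downstream of alarmin receptors. Immediate early genes are also known to be induced while tissue is dissociated and cells are sorted.

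The stretches before some known start sites of these genes carry recognition letters of related factor families, which is why a few are printed. Promoter windows of 150 bases before the RefSeq start (build GRCm38.p6, the NCBI name of the mm10 build) were available for 9 of the 10 genes, in 11 windows because Jdp2 has 3 starts. None was read for Egr1. The first set shows 5′ to 3′ the whole windows of Fos, Jun and Jdp2, where no annotated exon overlapped. Capitals mark the core TGACG of the cyclic AMP response element in Fos and Jdp2, and TGACATCA, a site letter for Jun and ATF dimers, in Jun.
Fos, chr12:85473740-85473889, plus strand: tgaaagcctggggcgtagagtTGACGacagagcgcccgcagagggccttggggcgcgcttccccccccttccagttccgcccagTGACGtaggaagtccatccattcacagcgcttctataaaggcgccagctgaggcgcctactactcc
Jun, chr4:95052223-95052372, minus strand: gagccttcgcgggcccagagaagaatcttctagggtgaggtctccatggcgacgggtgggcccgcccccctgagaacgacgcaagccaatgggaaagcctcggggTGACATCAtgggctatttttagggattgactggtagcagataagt
Jdp2 second start, chr12:85599266-85599415, plus strand: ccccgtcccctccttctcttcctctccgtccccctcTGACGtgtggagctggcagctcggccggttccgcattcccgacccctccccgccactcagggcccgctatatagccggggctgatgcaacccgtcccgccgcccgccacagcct

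The second set shows short stretches around the same kinds of letters in the other genes. Capitals mark TGACG in Junb, TGACATCA in Klf6, the same core read on the other strand, CGTCA, in Atf3, and GCGGGGGCG, an Egr family site letter, in Fosb and Fosl2.
Junb, chr8:84978840-84978864, minus strand: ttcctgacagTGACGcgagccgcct
Klf6, chr13:5861360-5861387, plus strand: tggtgcgagcTGACATCAtcgtcgcgca
Atf3, chr1:191183334-191183350, minus strand: aatagcattaCGTCAgc
Fosb, chr7:19310077-19310105, minus strand: tgacgcaagcGCGGGGGCGggtcccggag
Fosl2, chr5:32136383-32136411, plus strand: ccggctgcgcGCGGGGGCGgaagggcgcg

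Searched on both strands, TGACG occurred in 5 of the 11 windows, from 5 of the 9 genes. Its places were -129 and -66 from the start in Fos, -60 in Fosb, -106 in Junb, -114 in Jdp2 and -7 in Atf3. TGACG occurred in 13.32% of all 32851 windows of the same length. TGACATCA occurred in 2 of the 11 windows, in Jun at -45 and in Klf6 at -119, against 2.32% of all windows. GCGGGGGCG or GCGTGGGCG occurred in 2 of the 11 windows, in Fosb at -50 and in Fosl2 at -79, against 2.49% of all windows. TGACTCA, the AP-1 site, occurred in 0 of the 11 windows and in 2.84% of all windows. The Jund window, chr8:70697589-70697738, held none of these letters. It lies before a RefSeq start at 70697739, while the annotated Jund gene starts at 70698949. The stretch just before that annotated start was not searched. A match describes the letters only, and no binding was measured.

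Library totals ran from 1797504 to 25252366 counts, and from 9537 to 14056 genes had a count. Of 22 ILC2 markers 21 had counts, with Gata3, Il1rl1, Icos, Klrg1, Il2rg and Thy1 present in all 8 libraries. The prostaglandin receptor Ptgdr2 was not listed, and Rora stood at 0 in 5 libraries. The ILC2 markers summed to between 0.192% and 0.674% of counts in fed and between 0.225% and 1.06% in fasted libraries. Transcripts of acinar cells, the exocrine cells around the islets, made up far more: 28 of 30 acinar markers had counts and took 42.9%, 49.0%, 74.3% and 66.5% of counts in fed 1, 3, 4 and 5, and 3.04%, 3.39%, 69.5% and 71.3% in fasted 1, 3, 4 and 5. Fasted 1 and 3 thus stand apart, and each of the 10 genes is given with and without them. Other cell types left fewer counts. In CPM of library totals, red cell markers, nearly all the beta globin gene Beta-s, summed to between 106.6 and 379.3 in fed and between 72.7 and 599 in fasted libraries, the latter in fasted 1. Ductal, stromal and endothelial markers summed to between 111.8 and 234.9 in fed and between 19.1 and 178.3 in fasted libraries. B cell markers summed to at most 7.35, NK, ILC1 and ILC3 markers to at most 3.14, and mast cell, basophil and eosinophil markers to at most 8.64. Islet endocrine markers summed to at most 90.1, in fed 1, of which Ttr gave 87.3. Ins1 and Ins2 gave at most 28.7 each, in fasted 3. T cell markers summed to between 21.9 and 55.6 in fed and between 45.3 and 170.4 in fasted libraries, most of it Cd3g and Lef1, with Cd4 not listed. Myeloid markers reached 16.1 in fed and 129.3 in fasted libraries, the latter in fasted 1. In bulk RNA of this kind, fewer cells of a type and less RNA per cell cannot be told apart. Nor can it be told which of these cell types the transcripts of the 10 genes came from.

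Levels are in CPM, counts relative to library size, with sizes scaled by the trimmed mean of M values (TMM), and n = 4 in each group. Because CEL-seq2 counts the 3′ ends of transcripts, levels were not divided by gene length. All 10 genes together took 1.40%, 1.05%, 0.449% and 0.778% of all counts in fed 1, 3, 4 and 5, and 2.55%, 2.66%, 0.665% and 0.716% in fasted 1, 3, 4 and 5. The 2 highest shares belong to fasted 1 and 3, and fasted 4 and 5 lie within the fed range. These shares are of library totals, so less acinar RNA leaves more room for all other transcripts. On the TMM scale Jund was the most abundant of the 10, with a mean of 5875 CPM over the 8 libraries, rank 21 among all genes tested. Junb followed at 1552 CPM, Fosb at 1256, Fos at 824, Jun at 498, Atf3 at 270, Fosl2 at 262, Egr1 at 130, Klf6 at 103 and Jdp2 at 44.2 CPM. Some neighbours in this order were not separated. Junb exceeded Fosb in 5 of 8 libraries, Atf3 exceeded Fosl2 in 5 of 8 and Egr1 exceeded Klf6 in 4 of 8. Jund exceeded Junb, Fos exceeded Jun, Jun exceeded Atf3 and Fosl2 exceeded Egr1 in all 8 libraries, and Fosb exceeded Fos and Klf6 exceeded Jdp2 in 7 of 8.

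**Figure D1:**
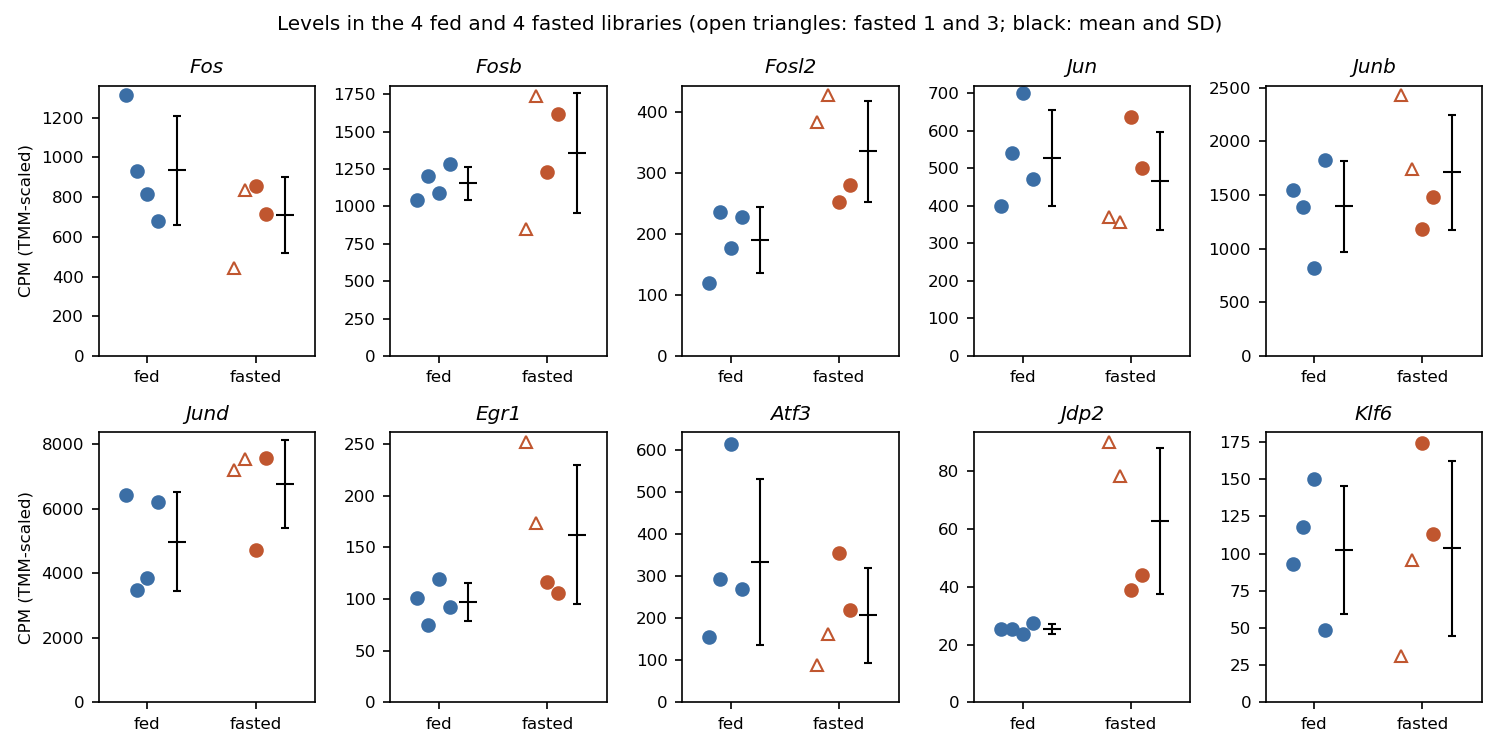
Level of each of the 10 genes in CPM over TMM-scaled library sizes (vertical axes from 0) in the 4 fed (blue) and 4 fasted (orange) libraries, with open triangles for fasted 1 and 3 and black bars for the mean and SD. The fasted points of Jdp2 and Fosl2 lie above all fed points, and those of the other 8 genes overlap with them.

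Between fasted and fed libraries 0 of the 10 genes passed an adjusted p of 0.05 in edgeR's quasi-likelihood test, as did 0 of all 7700 genes tested, a background of 0%. At an unadjusted p under 0.05 there were 3 of 10, Jdp2, Fosl2 and Egr1, all higher in fasted libraries. Of all genes tested, 4.39% had such a p, 2.77% higher and 1.62% lower. The count was 1 of 10, Jdp2, without fasted 1 and 3, where 267 of 8995 genes tested had such a p. It was 5 of 10 without fasted 4, where Jund, higher, and Atf3, lower, were added. No share over all genes for that single fit stands beside this count, so the rise is not read as a trait of the 10 genes. The range of that count over all genes without single libraries is given at the end. Fasted and fed libraries did not overlap for 2 of 10, Jdp2 and Fosl2, both higher, against 2.21% of all genes tested. Log2 fold changes, fasted minus fed, were positive for 7 of the 10 and negative for 3, with a median of 0.26 beside -0.00 over all genes tested. The genes did not share a direction: Fos, Jun and Atf3 had negative values, Klf6 a value near 0, and the other 6 positive ones.

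**Figure D2:**
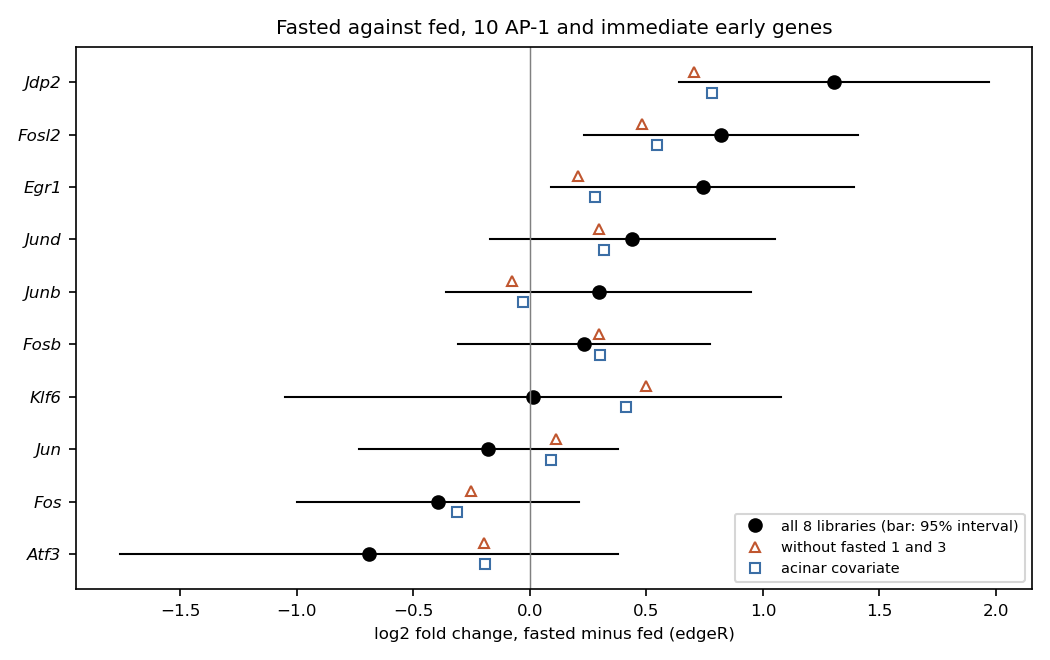
Log2 fold change, fasted minus fed (horizontal axis), of the 10 genes from edgeR with all 8 libraries (black, bar: 95% interval), without fasted 1 and 3 (orange triangles) and with the acinar share as a covariate (blue squares). The intervals of Jdp2, Fosl2 and Egr1 lie above 0, and all 3 values are smaller without fasted 1 and 3.

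The Fos family members differed among themselves. Fos, the prototype of the family (chromosome 12, 85473890 to 85477273, plus strand), stood at 1316, 932, 815 and 678 CPM in fed 1, 3, 4 and 5 and at 441, 837, 855 and 715 CPM in fasted 1, 3, 4 and 5. Fed 1 was the highest and fasted 1 the lowest of all, and the other 6 libraries lay together. The fed mean was 935 ± 274 and the fasted mean 712 ± 191 CPM (SD, n = 4), and the log2 fold change was -0.39 ± 0.27 (SE; 95% interval -0.998 to 0.21; edgeR unadjusted p = 0.180, adjusted p = 1.00). The fasted library was lower in 2 and higher in 2 of the 4 same-number pairs. The log2 fold change of Fos was -0.25 ± 0.35 without fasted 1 and 3, -0.18 without fed 1 and -0.22 without fasted 1.

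Fosb, a Fos protein known for long-lived splice forms (chromosome 7, 19302696 to 19310051, minus strand), stood at 1045, 1203, 1087 and 1287 CPM in fed and at 846, 1735, 1229 and 1616 CPM in fasted libraries 1, 3, 4 and 5. The fed values lay close together, with a coefficient of variation of 9.52%, and the fasted values spread to both sides of them. The log2 fold change was 0.23 ± 0.25 (95% interval -0.31 to 0.77). It was 0.30 ± 0.31 without fasted 1 and 3, and ran from 0.08 without fasted 3 to 0.40 without fasted 1 when single libraries were left out. Splice forms cannot be separated in counts per gene.

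Fosl2, which encodes FRA2, a Fos protein without the strong activation domain of Fos (chromosome 5, 32135801 to 32157842, plus strand), stood at 119, 235, 177 and 227 CPM in fed and at 382, 426, 251 and 280 CPM in fasted libraries. Each fasted library lay above each fed library, and the fasted library was higher in all 4 pairs, as it was for 9.39% of all genes tested. The gap between the groups was narrow, from 235 in fed 3 to 251 CPM in fasted 4. The means were 189 ± 53.6 and 335 ± 83.0 CPM, and the log2 fold change was 0.82 ± 0.27 (95% interval 0.23 to 1.41; edgeR unadjusted p = 0.0105, adjusted p = 0.87). The mean was 404 CPM in fasted 1 and 3 and 265 CPM in fasted 4 and 5. Without fasted 1 and 3 the log2 fold change was 0.48 ± 0.33 (edgeR unadjusted p = 0.175), and with the acinar share as a covariate it was 0.55 ± 0.28.

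Within a library, Fosl2 counts per Fos count do not depend on scaling. This ratio was 0.0901, 0.252, 0.218 and 0.334 in fed 1, 3, 4 and 5 and 0.868, 0.510, 0.294 and 0.391 in fasted 1, 3, 4 and 5. The groups overlapped, since fed 5 lay above fasted 4, and the highest ratios were those of fasted 1 and 3. Fosb per Fos ran from 0.794 to 1.90 in fed and from 1.44 to 2.26 in fasted libraries, also with overlap.

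The Jun family supplies the partner that Fos proteins need. Jund, the member most abundant in resting cells and a growth-restraining one in fibroblasts (chromosome 8, 70698949 to 70700616, plus strand), stood at 6411, 3491, 3841 and 6195 CPM in fed and at 7204, 7542, 4736 and 7577 CPM in fasted libraries. The fasted library was higher in all 4 pairs, but fed 1 and fed 5 lay above fasted 4, so the groups overlapped. The means were 4985 ± 1532 and 6765 ± 1363 CPM, with a log2 fold change of 0.44 ± 0.28 (95% interval -0.17 to 1.05), and 0.30 ± 0.42 without fasted 1 and 3.

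Junb, which activates type 2 cytokine genes in helper T cells (chromosome 8, 84974484 to 84978718, minus strand), stood at 1545, 1385, 816 and 1829 CPM in fed and at 2435, 1746, 1179 and 1485 CPM in fasted libraries. Fasted 1 was the highest and fed 4 the lowest, and the groups overlapped. The log2 fold change was 0.30 ± 0.30 (95% interval -0.36 to 0.95), and it was -0.08 ± 0.39 without fasted 1 and 3. The direction of Junb thus rests on those 2 libraries, which averaged 2090 CPM beside 1332 CPM in fasted 4 and 5.

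Jun, the strongest activator of the family (chromosome 4, 95049034 to 95052222, minus strand), stood at 401, 540, 702 and 471 CPM in fed and at 370, 358, 637 and 501 CPM in fasted libraries. Fasted 1 and 3 were the lowest of the 8 libraries, and fed 4 and fasted 4 the highest. The log2 fold change was -0.18 ± 0.25 (95% interval -0.73 to 0.38), turned to 0.11 ± 0.31 without fasted 1 and 3 and was 0.24 when library totals alone set the scale. Junb counts per Jun count were 3.86, 2.56, 1.16 and 3.88 in fed and 6.57, 4.87, 1.85 and 2.96 in fasted libraries. The ratio was highest in fasted 1 and 3 and lowest in fed 4 and fasted 4.

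Jund was the main transcript of the Fos and Jun families in every library. It made up from 44.8% to 59.2% of the counts of the 6 family genes in fed and from 53.3% to 62.2% in fasted libraries. Junb came next with a mean of 15.0% in each group, and Fosb with 12.9% ± 2.63 when fed and 12.02% ± 3.19 when fasted (SD, n = 4). The share of Fos was 10.4% ± 2.72 in fed and 6.47% ± 2.42 in fasted libraries, and the groups overlapped. Jun took 6.12% ± 2.61 and 4.32% ± 1.97, and Fosl2 took 2.15% ± 0.801 and 2.94% ± 0.492. Within a library a higher share of 1 gene lowers the others.

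**Figure D3:**
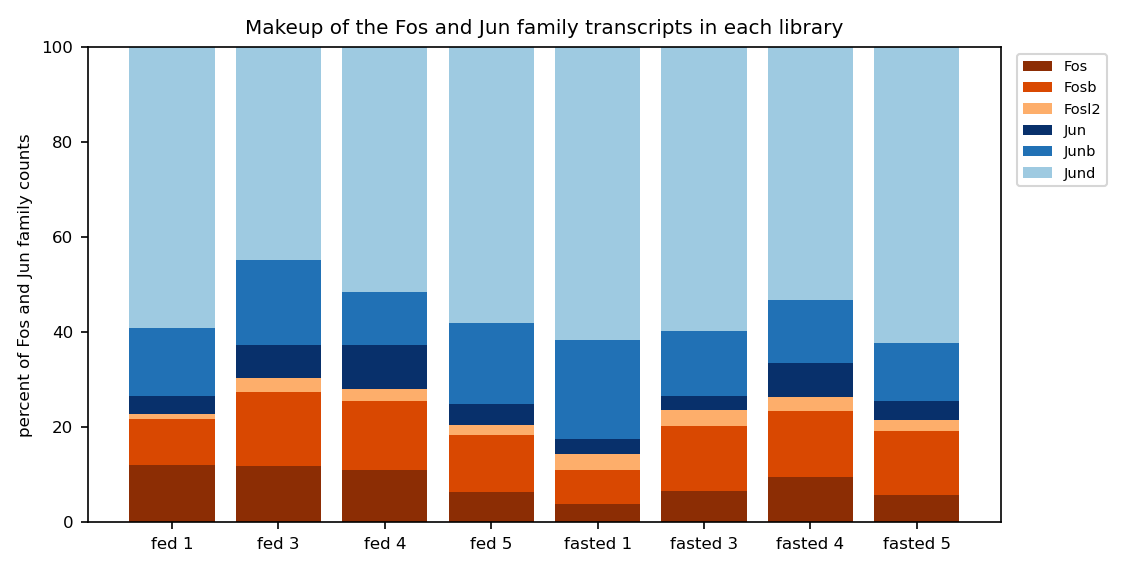
Percent of the summed counts of Fos, Fosb, Fosl2, Jun, Junb and Jund (vertical axis) taken by each gene in each fed and fasted library (bars). Jund is the largest segment in all 8 libraries, from 44.8% in fed 3 to 62.2% in fasted 5.

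Jdp2 and Atf3 are leucine zipper proteins that pair with Jun proteins and often repress AP-1 and cyclic AMP response sites. Jdp2, the Jun dimerization protein (chromosome 12, 85599027 to 85639878, plus strand), stood at 25.3, 25.5, 23.5 and 27.6 CPM in fed and at 90.1, 78.5, 39.1 and 44.0 CPM in fasted libraries 1, 3, 4 and 5. The fed libraries had a coefficient of variation of 6.56%, and each fasted library lay above all of them. These values rest on 57, 189, 320 and 81 counts in fed and 387, 404, 213 and 233 counts in fasted libraries. The means were 25.5 ± 1.67 and 62.9 ± 25.2 CPM, a ratio of means of 2.47. The log2 fold change was 1.30 ± 0.30 (95% interval 0.64 to 1.97; edgeR unadjusted p = 0.00118, adjusted p = 0.50), the p-value ranking 16 of 7700. DESeq2 gave an adjusted p of 0.0722, also above the threshold.

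The highest Jdp2 levels were those of fasted 1 and 3, with little acinar RNA, at a mean of 84.3 beside 41.5 CPM in fasted 4 and 5. Without them the log2 fold change was 0.70 ± 0.31 (edgeR unadjusted p = 0.0463), and with the acinar share as a covariate it was 0.78 ± 0.26 (edgeR unadjusted p = 0.00992). The acinar shares of fasted 4 and 5, 69.5% and 71.3%, lie within the fed range, and both libraries lay above all 4 fed libraries in Jdp2. The part of acinar RNA in the Jdp2 difference was not tested. The unadjusted p of Jdp2 was under 0.05 in 20 of the 20 alternative analyses, with log2 fold changes from 0.70 to 2.06, and the adjusted p was above 0.05 in each.

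Atf3, a stress-induced member of the ATF family (chromosome 1, 191170296 to 191218039, minus strand), stood at 156, 293, 615 and 268 CPM in fed and at 87.8, 163, 355 and 220 CPM in fasted libraries. The fasted library was lower than the fed library of the same number in all 4 pairs, as it was for 8.19% of all genes tested. The groups overlapped, and within each group library 1 was the lowest and library 4 the highest. The means were 333 ± 197 and 207 ± 113 CPM, with a log2 fold change of -0.69 ± 0.48 (95% interval -1.76 to 0.38; edgeR unadjusted p = 0.180). With the column number as a replicate block the value was -0.69 ± 0.17 (edgeR unadjusted p = 0.00402, adjusted p = 0.49). The mean was 126 CPM in fasted 1 and 3 and 288 CPM in fasted 4 and 5, and without the former the log2 fold change was -0.20 ± 0.47. Libraries 4 also carried weight: the value was -0.21 without fed 4 and -1.10 without fasted 4.

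Jdp2 counts per Atf3 count compare both repressors within a library. The ratio was 0.162, 0.0869, 0.0383 and 0.103 in fed 1, 3, 4 and 5 and 1.03, 0.480, 0.110 and 0.200 in fasted 1, 3, 4 and 5. It was higher in the fasted library of each pair, and the groups overlapped because fed 1 lay above fasted 4. The ratio was highest in fasted 1 and 3.

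Egr1 and Klf6 are zinc finger factors without a leucine zipper. Egr1, an early growth response factor induced through MAP kinase and serum response factor (chromosome 18, 34859823 to 34864984, plus strand), stood at 101, 75.2, 119 and 92.1 CPM in fed and at 252, 174, 117 and 106 CPM in fasted libraries. Fasted 1 and 3 lay above all others, while fasted 4 and 5 lay inside the fed range. The means were 96.9 ± 18.3 and 162 ± 67.0 CPM, with a log2 fold change of 0.74 ± 0.30 (95% interval 0.09 to 1.39; edgeR unadjusted p = 0.0286, adjusted p = 1.00). Without fasted 1 and 3 the log2 fold change was 0.21 ± 0.29, without fasted 1 alone it was 0.45, and with the acinar covariate it was 0.28 ± 0.27. Egr1 counts per Jun count were 0.253, 0.139, 0.170 and 0.195 in fed and 0.681, 0.485, 0.183 and 0.211 in fasted libraries, with the same 2 libraries high.

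Klf6, a Krüppel-like factor that binds GC-rich promoters (chromosome 13, 5861482 to 5870394, plus strand), stood at 92.8, 118, 150 and 48.4 CPM in fed and at 31.0, 95.8, 174 and 113 CPM in fasted libraries. The means were 102 ± 42.8 and 103 ± 58.9 CPM, and the interval of the log2 fold change, -1.05 to 1.08 around 0.01 ± 0.48, leaves room for a change in either direction. Fasted 1 was the lowest library and fasted 4 the highest. The value was 0.50 ± 0.41 without fasted 1 and 3 and 0.41 ± 0.44 with the acinar covariate.

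**Figure D4:**
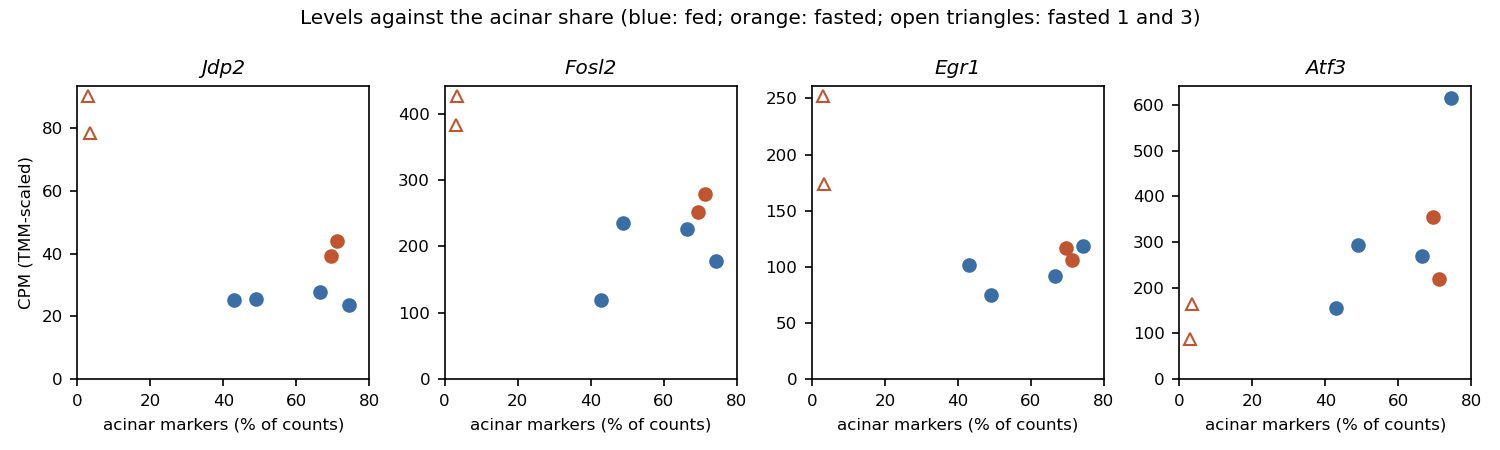
Level in CPM over TMM-scaled library sizes (vertical axes from 0) of Jdp2, Fosl2, Egr1 and Atf3 against the percent of counts in acinar markers (horizontal axes) in fed (blue) and fasted (orange) libraries, open triangles for fasted 1 and 3. Fasted 1 and 3, at 3.04% and 3.39% acinar, are the 2 highest libraries for Jdp2, Fosl2 and Egr1. Fasted 4 and 5 lie above all fed libraries for Jdp2 and Fosl2 and among them for Egr1 and Atf3. Of the fed libraries, only fed 4 and 5 have acinar shares near those of fasted 4 and 5.

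Among fasted libraries, several of these genes differed between fasted 1 and 3, with little acinar RNA, and fasted 4 and 5. No such comparison was made among the fed libraries. Levels in fasted 1 and 3 exceeded those in fasted 4 and 5 by a ratio of means of 2.03 for Jdp2, 1.91 for Egr1, 1.57 for Junb and 1.52 for Fosl2. The ratio ran the other way for Atf3, Klf6 and Jun, where fasted 4 and 5 exceeded fasted 1 and 3 by 2.29, 2.27 and 1.56. For Fosb, Jund and Fos the means of both pairs differed by ratios of 1.10, 1.20 and 1.23. The part of acinar RNA in these differences was not tested. Transcripts of heat shock proteins, which dissociation of tissue induces, summed to between 0.0802% and 0.406% of counts in fed and between 0.0739% and 0.247% in fasted libraries. All 11 heat shock genes listed had negative log2 fold changes, with a median of -0.46, and 0 had an unadjusted p under 0.05. Without fasted 1 and 3, and also when library totals alone set the scale, 8 of the 11 were negative. Single libraries moved the list: without fed 3, 7 were negative with a median of -0.11, and without fasted 4 all 11 were, with a median of -1.24 and 4 at an unadjusted p under 0.05. Their part in the values of the AP-1 genes was not tested.

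Other leucine zipper partners of AP-1 were measured at low levels, except Maff and Mafk, whose mean levels exceeded that of Jdp2. Of 12 with counts, 9 were tested, 7 with positive and 2 with negative log2 fold changes, a median of 0.07, and 0 called. This median had no stable sign: it was 0.41 without fed 3, 0.27 without fed 4, -0.02 without fed 5, -0.12 without fasted 4, 0.27 without fasted 1 and 3 and 0.36 with the replicate block. At an unadjusted p under 0.05, 3 were higher, against 2.77% of all genes tested. The same 3 had fasted libraries above all fed libraries, against 2.21% of all genes tested. These were the small Maf proteins Maff and Mafk, which lack an activation domain, and the repressor Bach2, which pairs with them. Maff stood at 29.8, 33.5, 38.1 and 44.3 CPM in fed and at 90.1, 69.2, 57.3 and 80.4 CPM in fasted libraries. The log2 fold change of Maff was 1.03 ± 0.24 (edgeR unadjusted p = 0.00111, adjusted p = 0.50). Without fasted 1 and 3 Maff was at 0.91 ± 0.32. Mafk had means of 42.5 ± 3.66 and 69.5 ± 28.0 CPM and a log2 fold change of 0.71 ± 0.28, 0.51 ± 0.29 without those libraries and 0.40 without fasted 1 alone. Bach2, at 2.99 ± 1.61 and 7.76 ± 2.35 CPM, had a log2 fold change of 1.31 ± 0.50, and 0.91 ± 0.67 without them. Its levels were low, 1.33 CPM in fed 1, and the gap between the groups was narrow, from 5.15 in fed 4 to 5.28 CPM in fasted 5. Batf, an AP-1 partner without an activation domain, was at 10.97 ± 5.31 and 11.3 ± 3.52 CPM, a log2 fold change of 0.07 ± 0.42.

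Fos, Jdp2 and Batf are neighbours on chromosome 12, all on the plus strand. From the end of Fos to the start of Jdp2 is 121.8 kb, and from the end of Jdp2 to the start of Batf, at 85686669, is 46.8 kb. These 3 are the only protein-coding genes annotated from Fos to Batf. Their log2 fold changes of -0.39 ± 0.27, 1.30 ± 0.30 and 0.07 ± 0.42 stand side by side, and the differences between them were not tested.

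Other immediate early genes leaned to positive values. Of 32 with counts, 28 were tested, 20 positive and 8 negative, with a median of 0.34, and 0 were called. At an unadjusted p under 0.05, 6 were higher and 0 lower, against 2.77% and 1.62% of all genes tested. Fasted libraries lay above all fed ones for 5, against 2.21% of all genes tested. Zfp36l2, which encodes a protein that promotes decay of AU-rich mRNAs, had means of 103 ± 29.9 and 214 ± 48.3 CPM and a log2 fold change of 1.06 ± 0.26. The clock gene Per1, which glucocorticoids and cyclic AMP induce, had 31.3 ± 6.67 and 68.3 ± 21.3 CPM, a log2 fold change of 1.13 ± 0.28. Tnfaip3, which encodes the NF-kB inhibitor A20, had 120 ± 30.3 and 204 ± 26.9 CPM, a log2 fold change of 0.77 ± 0.23. Without fasted 1 and 3 these 3 stood at 0.80 ± 0.33, 0.85 ± 0.34 and 0.75 ± 0.32. The remaining 3 of the 6, Klf10, Nr4a1 and Btg1, are named after their values were seen, and had log2 fold changes of 1.22 ± 0.49, 0.62 ± 0.27 and 0.50 ± 0.20. Without fasted 1 and 3 the list had 20 of 30 tested genes positive and a median of 0.19.

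Components that signal to AP-1 showed no common direction. Of 26 tested MAP kinase cascade genes 11 were positive and 15 negative, with a median of -0.09. When library totals alone set the scale this median was 0.39, beside 0.50 over all genes tested. The small GTPase Hras1 was the only gene of the list at an unadjusted p under 0.05, with means of 82.9 ± 14.7 and 58.6 ± 8.49 CPM and a log2 fold change of -0.50 ± 0.22 (edgeR unadjusted p = 0.0433, adjusted p = 1.00), which turned to 0.08 when library totals alone set the scale. Mapk14, the p38 alpha kinase, was at 0.43 ± 0.22 with fasted libraries above all fed ones, as for 2.21% of all genes tested. Without fasted 3 Mapk14 was at 0.27. Hras1 and Mapk14 were at -0.60 and 0.30 without fasted 1 and 3. Of 9 tested phosphatases and feedback inhibitors of the cascade 6 were positive and 3 negative, with a median of 0.16, which ran from 0.04 without fasted 1 to 0.38 without fasted 4 and was 0.02 without fasted 1 and 3. Dusp2, a nuclear MAP kinase phosphatase, had 3.91 ± 2.62 and 12.7 ± 9.60 CPM and a log2 fold change of 1.70 ± 0.61, with 26.8 CPM in fasted 1 and between 6.06 and 10.8 CPM in the other fasted libraries. It was at 1.03 without fasted 1 and at 1.11 ± 0.67 without fasted 1 and 3. Dusp10, which acts on JNK and p38, was at 0.67 ± 0.45, and at 1.25 ± 0.40 without fed 3, the highest fed library. The receptor signalling inhibitor Spry1 was at -0.44 ± 0.25, with all fasted libraries below the fed ones, as for 1.31% of all genes tested, and at -0.35 ± 0.33 without fasted 1 and 3.

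Of 14 tested transcription factors and coregulators upstream of immediate early genes 10 were positive and 4 negative, with a median of 0.20, and 0 were at an unadjusted p under 0.05. The median was -0.05 without fasted 1 and 3, and ran from 0.06 without fasted 3 to 0.36 without fasted 5 when single libraries were left out. The serum response factor coactivators Mkl1 and Mkl2 were at 0.57 ± 0.36 and 0.64 ± 0.56, and Fbxw7, a ubiquitin ligase subunit that targets Jun for degradation, was at 0.65 ± 0.67. They stood at 0.29, 0.43 and 0.37 without fasted 1 and 3. Single libraries moved each of them: Mkl1 was at 0.25 without fasted 1, Mkl2 at 0.29 without fed 5 and Fbxw7 at 1.24 without fed 4. Among the heat shock genes Hsph1, Hsp90ab1 and Hspd1 had the smallest p, with log2 fold changes of -1.48 ± 0.69, -0.62 ± 0.33 and -0.83 ± 0.53. Without fed 3, which held the highest level of each, they were at -0.62, -0.23 and -0.34, and without fasted 4 Hsph1 and Hspd1 were at -2.27 and -1.27. The 3 genes were at -0.98, -0.42 and -0.60 without fasted 1 and 3.

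**Figure D5:**
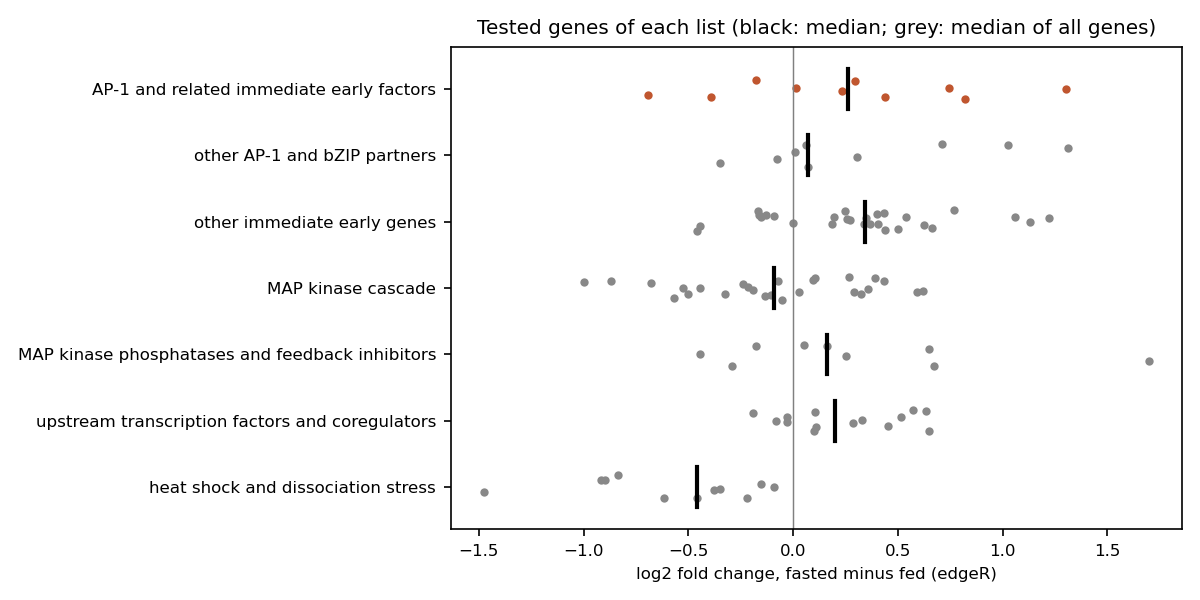
Log2 fold change, fasted minus fed (horizontal axis), of each tested gene of the 10 AP-1 and immediate early genes (orange) and of 6 further lists (grey points), with the list's median (black bar) and the median of all genes tested (grey line). The medians run from -0.46 for heat shock genes to 0.34 for other immediate early genes, and the points of the 10 genes spread from -0.69 for Atf3 to 1.30 for Jdp2.

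The genes nearest in profile to Fos, Jun, Egr1 and Fosl2 over the 8 libraries were looked up. Likeness was the root mean square difference of log2 CPM after each gene's mean was removed, and the smaller the value, the more alike the profiles. For Fosl2 the nearest tested gene outside the group was Rab43, at 0.13, then Ctdsp2 at 0.18, while the nearest AP-1 gene was Jdp2, at 0.36. Fosl2's own spread around its mean on that scale was 0.55. For Egr1 the nearest were Samd4b at 0.17 and Mrpl4 at 0.21, with Jdp2 again the nearest of the 10 genes, at 0.36. For Fos the nearest were 2310009A05Rik at 0.14 and Iffo2 at 0.15, and for Jun they were Gnas at 0.11 and Ndufa4 at 0.13. Among the 10 genes Fosb was nearest to both Fos and Jun, at 0.46 each, farther than the spread of Fos, 0.42, and of Jun, 0.33, around their own means. The candidates outside the group far outnumber those within it, so that a nearer gene lies outside says nothing about the group. These likenesses are over 8 libraries that share their depth and acinar content, and they describe the profiles only.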

How the data were processed

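RNA was extracted with Trizol and sequenced as CEL-seq2 libraries, which carry sample barcodes at the 3′ end, per the labels' protocols. The deposited values are raw whole-number counts per gene. The submitters' processing notes name STAR, edgeR and the build mm10. Versions, strand setting and whether reads or molecular identifiers were counted are not given in the sources used here. All of the authors' 4 sequencing files hold both treatments, so a library's group was read from its column name, control being taken as fed. The table has more columns than files in each treatment, so 4 fed and 4 fasted columns were used, and 2 further columns of counts were not. Whether the libraries are from different animals is not given, and p-values reflect the spread between these libraries alone, which may be technical. Libraries of the same group differed by more than sampling noise (chi-square per gene at least 15.02, genes with 20 counts or more), so none were merged.

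After 11 ERCC spike-in rows (20 counts) were left out, 7700 of 15835 genes passed filterByExpr. They entered edgeR 4.0.16 (R 4.3.3, TMM factors from 0.54 to 2.10, robust quasi-likelihood test, two-sided, Benjamini-Hochberg over all genes tested, threshold 0.05). Alternatives were other scalings and filters, DESeq2 1.42.0, limma-voom (limma 3.58.1), a replicate block, an acinar covariate, marker removal, thinning to 1797504 counts and leaving out libraries. The common biological coefficient of variation was 0.506. On simulated data of this comparison, with 200 of 7700 genes changed, edgeR called 40% of the genes given a 4-fold change and 7% of those given a 2-fold change. On the same simulated data, 14 of 91 DESeq2 calls and 1 of 48 edgeR calls were false. The simulated counts were drawn independently for each gene and library. They did not copy the acinar split of the fasted group or any pairing of numbers, so rates in the real data may differ.

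Same-number libraries deviated together from their group means (correlations 0.225, 0.139, 0.504 and 0.131 over tested genes, against -0.405 to 0.215 for unlike numbers). Fed 1 with fasted 3 (0.197) and fed 4 with fasted 5 (0.215) exceeded the same-number values of libraries 3 and 5. Numbers were taken to pair libraries in counts of pairs and in the replicate block, but not in the main test. With the block, 4 of the 10 genes had an edgeR unadjusted p under 0.05, beside 536 of 7700 genes tested. What a number marks is not stated.

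The members and lists were chosen with earlier results of these data known. Named genes are the 10 members, the 3 genes with the smallest p of each list, and the 2 genes nearest in profile (log2 CPM, prior count 2) to Fos, Jun, Egr1 and Fosl2. A gene that this rule takes is not reported here. Coordinates are those of GENCODE vM21 on the same build, and promoter letters those of RefSeq. Jun, Jund, Junb, Atf3 and Jdp2 overlap genes on the other strand, whose reads cannot be told apart if counting ignored strand.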

Additional observations from a re-analysis of the deposited data

Results flagged for a closer look

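Among 84 groups of 4 values examined, 7 held a library far from the other 3. Chance alone marks about 1 in 20 such groups. Jund in fasted 4 stood at 4736 CPM, with the nearest fasted library at 7204. The Egr1 per Fos count ratio in fasted 1 was 0.572, the nearest being 0.207. The Klf6 per Jun count ratio in fed 5 was 0.103, the nearest being 0.214. Fosb took 7.24% of Fos and Jun family counts in fasted 1, the nearest being 13.3%. In fasted libraries, Hras1 stood at 71.3 CPM in fasted 1 (nearest 55.5), Mkl2 at 16.1 CPM in fasted 3 (nearest 10) and Hsph1 at 15.2 CPM in fasted 4 (nearest 4.08).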

How the results depend on the processing

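No gene passed an adjusted p of 0.05 with edgeR, where 338 of 7700 had an unadjusted p under 0.05. With library totals alone 1 gene passed, with no filter on low counts 1, and with DESeq2 17, none of them among the 10 AP-1 and immediate early genes or the listed pathway genes. Leaving out single libraries gave 0 in each case. The genes at an unadjusted p under 0.05 numbered 919 with no filter (15660 tested), 714 with limma-voom and 536 with the replicate block, and from 249 to 561 without single libraries. The replicate block changed no call. Compared with an alternative, results kept direction and threshold side, or their value, in 775 cases, moved in 27 and turned direction in 14. A gene counted as kept however much its value shrank, and as no gene passed the threshold in the main fit, none could fall below it. Egr1 at 0.21 without fasted 1 and 3, beside 0.74 with all libraries, thus counted as kept. Directions turned for Jun with library totals (0.24), the acinar covariate (0.089) and without fasted 1 and 3 (0.11), for Junb with the covariate (-0.031) and without those libraries (-0.076), and for Hras1 with library totals (0.083). Klf6, near 0, turned with the stricter filter (-0.018), limma-voom (-0.28), the replicate block (-0.10), thinning (-0.0092), and without fed 1 (-0.026), fed 5 (-0.21), fasted 4 (-0.37) or fasted 5 (-0.031), in a range from -0.37 to 0.32 over single libraries left out. The causes were not tested. Library totals alone moved the median of all genes tested to 0.50. Depth limits genes of few counts, such as Jdp2 with 57 in fed 1, and more so those at lower levels. In fed 1 Bach2 stood at 1.33, Dusp2 at 1.78 and Fbxw7 at 0.44 CPM, and in fed 5 Mkl2 stood at 1.02 CPM. Intervals cover spread between these libraries only.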
